A study of Mus musculus with 6 samples.

Results

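Heart macrophages come from more than 1 source, and 10 genes listed as markers of resident or of recruited cells were examined in dystrophic mouse ventricles. The resident genes were Lyve1, Timd4, Folr2, Cd163 and Mrc1, and the recruited or inflammatory genes were Lyz2, Plac8, Lgals3, Trem2 and Itgam. They were chosen by name, as transcript clusters of the array whose annotation gave exactly 1 of these symbols. All 10 had 1 such cluster, out of 30142 named genes, so no choice between clusters was needed. Itgam belongs to the recruited group by the same rule, although the short member list held only the other 9. All 10 are protein-coding. In RefSeq (GRCm38.p6) the resident genes are annotated as Lyve1 at chr7:110850607-110862953, Timd4 at chr11:46810786-46844333, Folr2 at chr7:101839988-101857190, Cd163 at chr6:124304636-124330529 and Mrc1 at chr2:14229414-14332023. The recruited genes are annotated as Lyz2 at chr10:117277541-117282272, Plac8 at chr5:100551589-100572253, Lgals3 at chr14:47373860-47386167, Trem2 at chr17:48346401-48352276 and Itgam at chr7:128062640-128118491.

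RNA came from heart ventricles of 6 male mice, each measured on its own Affymetrix array. All mice were dystrophin-deficient (mdx) and utrophin haplo-insufficient (utrn+/-) on the C57BL/10 background, a genotype called "Het" in the labels, so the untreated mice were diseased too and no healthy heart was included. The finerenone group of 3 mice ate chow with 100 ppm of finerenone from 4 weeks of age, and the untreated group of 3 mice ate that chow without the drug. All were 20 weeks old at collection. Finerenone is a non-steroidal antagonist of the mineralocorticoid receptor, and the comparison asks how ventricular transcripts differ when it is given over most of the life of the animal.

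Resident macrophages are seeded largely before birth and keep their numbers by dividing in place, while recruited macrophages arise from blood monocytes that enter the tissue after injury. Resident cells carry receptors for scavenging, such as the mannose receptor and the haemoglobin receptor, and newly arrived cells are rich in lysozyme and in adhesion molecules of the blood monocyte. The mineralocorticoid receptor is present in macrophages as well as in muscle cells. In whole ventricle, more cells of a type and more RNA per cell cannot be told apart.

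The values are log2 signals made by the authors with RMA, which subtracts background, equalises the spread of signals between arrays and merges each cluster's probes into a single value. Differences are finerenone minus untreated on this scale, so 1 is a doubling. Signals of different genes come from different probes and were not compared with each other. A gene's mean over the 6 arrays was set against 5222 negative control probe sets, whose median was 5.19 over all arrays. By this measure Plac8 (3.91) and Trem2 (4.78) lay below the control median, Lgals3 (6.08), Itgam (6.75) and Timd4 (6.95) exceeded 71.3% to 85.2% of the control sets, and Cd163, Folr2, Mrc1, Lyve1 and Lyz2 exceeded 96.4% to 99.4%. Both genes below the control median were on the recruited side. The 95th percentile of the control sets was 8.345 to 8.734 per array, above the means of Lgals3, Itgam and Timd4 as well.

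Of the 10 genes, 9 had a higher mean in finerenone-treated hearts and 1, Timd4, had a lower one. All 5 recruited genes were on the higher side, against 4 of the 5 resident genes. Over all 30142 genes 58.2% had a higher mean in treated hearts, so a lean in this direction was common on these arrays. None of the 10 passed an adjusted p of 0.05 in limma, a linear model fitted to all genes, where their adjusted p ran from 0.597 (Plac8) to 0.971 (Cd163). Over all genes 0% passed. At an unadjusted p below 0.05 in limma there were 2 of the 10, Lyz2 and Plac8, both higher, beside 5.69% of all genes higher and 2.12% lower.

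**Figure D1:**
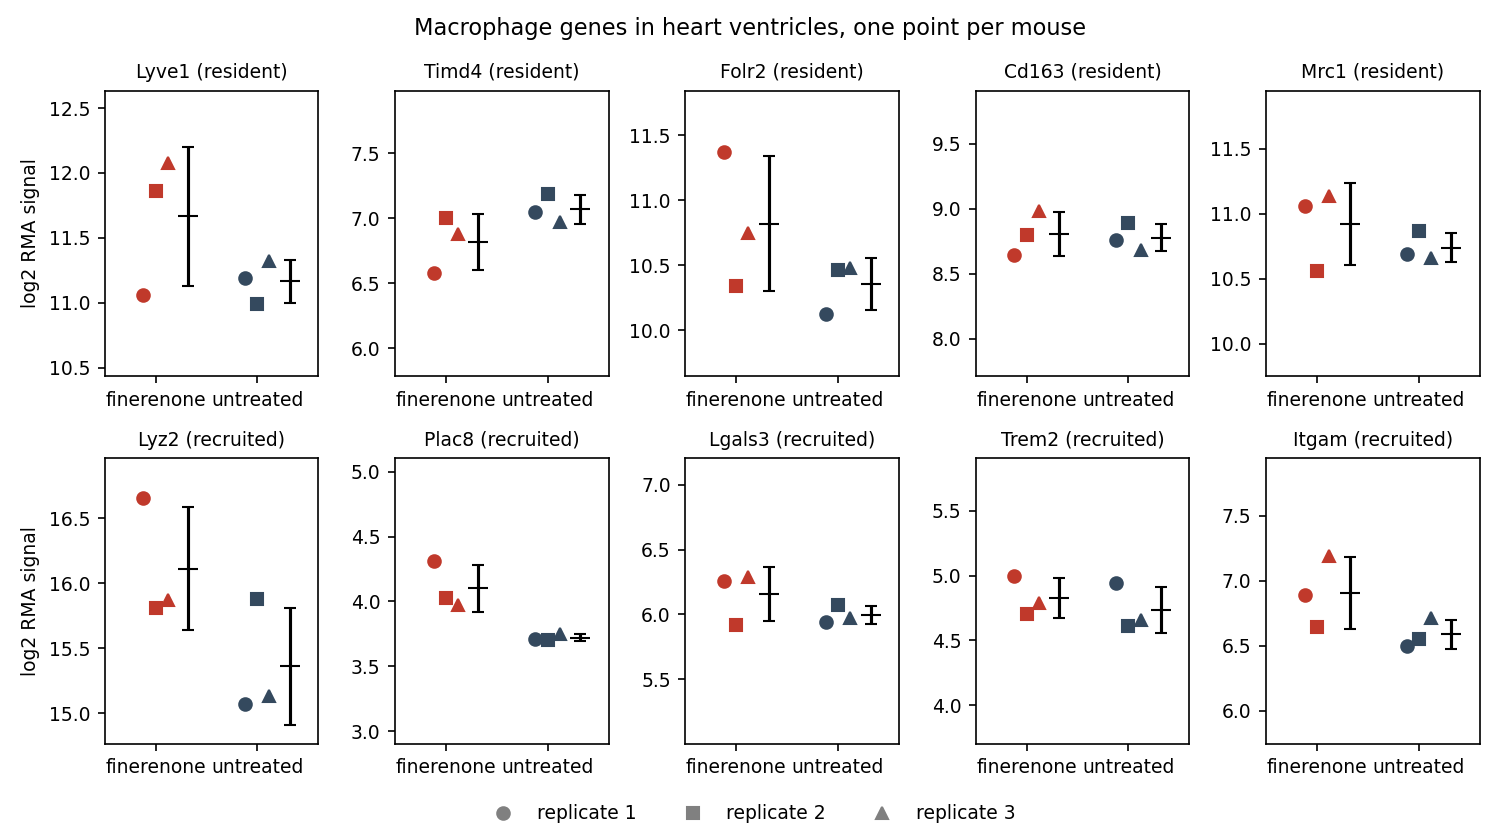
Log2 RMA signal of the 10 genes, 1 point per mouse, with the 3 finerenone mice left and the 3 untreated mice right in each panel. Bars beside the points are the mean ± SD of each group, every panel spans the same number of log2 units, and only Plac8 shows all treated mice above all untreated mice.

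The bright recruited gene was Lyz2, the lysozyme of macrophages, monocytes and neutrophils, which cuts bacterial cell walls. It measured 16.66, 15.81 and 15.87 in the 3 finerenone arrays, against 15.07, 15.88 and 15.13 in the 3 untreated arrays. The groups overlapped because untreated replicate 2 lay above 2 of the treated arrays, and finerenone replicate 1 stood alone at the top. Means were 16.11 ± 0.48 and 15.36 ± 0.45 (SD, n = 3 each), a difference of 0.75 ± 0.31 (SE), or 1.68-fold with a 95% interval of 1.01 to 2.80. The adjusted p was 0.629 in limma, and the exact permutation test over the arrays gave p = 0.3, where 3 against 3 cannot go below 0.1. Without finerenone replicate 1 the difference was 0.48, and without untreated replicate 2 it was 1.01. After quantile normalization of the deposited values it was 0.50. Among the 1087 genes with a mean of at least 14, a level chosen after values were seen, 206 (19.0%) were higher by 0.5 or more in treated hearts. Differences of 0.5 or more were thus frequent among bright genes, and the share at 0.75 or more, the Lyz2 difference, was not counted.

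Lyz2 has a close copy, Lyz1, the lysozyme of intestinal Paneth cells, 5522 bases away on chromosome 10. The annotated gene Lyz2 spans 117277541 to 117282272 and Lyz1 spans 117287795 to 117292868 (GRCm38.p6, minus strand). The 100 bases before each annotated start, taken from RefSeq, are shown because the copies resemble each other there too, with the longest run that both share in capitals.
Lyz2: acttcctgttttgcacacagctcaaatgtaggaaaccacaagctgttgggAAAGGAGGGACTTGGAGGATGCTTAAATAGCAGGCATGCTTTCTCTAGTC
Lyz1: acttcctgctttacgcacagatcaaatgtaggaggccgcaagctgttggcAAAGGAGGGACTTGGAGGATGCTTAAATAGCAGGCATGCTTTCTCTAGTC
The windows lie at chr10:117282273-117282372 and chr10:117292869-117292968, agree at 92 of 100 bases, and share their last 50 bases without a mismatch. Over 250 bases before each start, compared position by position without gaps, 152 (60.8%) were identical.

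The clusters of both lysozymes differed alike between groups. Lyz1 measured 11.11, 10.62 and 10.50 in finerenone arrays, against 9.85, 10.48 and 9.71 in untreated arrays, a difference of 0.73 ± 0.25 (SE; adjusted p = 0.604 in limma). Its groups did not overlap, beside 8.17% of all genes with every treated array above every untreated one. Still, untreated replicate 2 and finerenone replicate 3 were close together. Across the 6 arrays Lyz2 and Lyz1 had a Pearson's r of 0.978 (exact permutation p = 0.0167) and a Spearman's rho of 0.714 (exact permutation p = 0.136), and r was 0.973 without the 2 arrays farthest from the Lyz2 median. The permutation shuffled all 6 arrays regardless of group, so its p also reflects the group difference of both genes. On deviations from the group means r was 0.962. Lyz2 and Lyz1 were the only pair for which a correlation was tested. How far probes of either cluster also bind the other transcript was not tested, so the Lyz2 value is uncertain in the part that Lyz1 RNA may add, and the same holds for Lyz1.

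**Figure D2:**
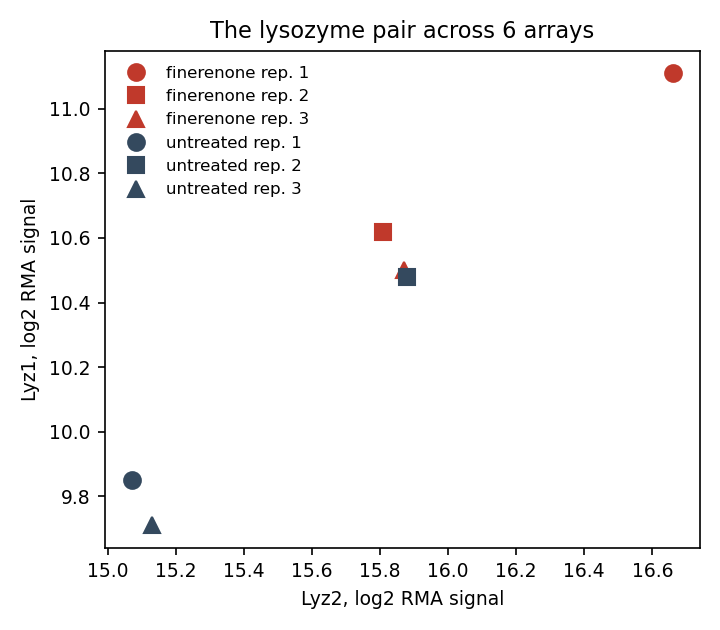
Log2 RMA signal of Lyz1 against Lyz2 on the 6 arrays, with red points for finerenone mice and dark points for untreated mice, and a marker for each replicate number. Finerenone replicate 1 is at the upper right, untreated replicates 1 and 3 are at the lower left, and untreated replicate 2 sits beside finerenone replicates 2 and 3.

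Plac8, a small cysteine-rich protein of monocytes, granulocytes and some lymphocytes, measured 4.31, 4.03 and 3.97 in finerenone arrays, against 3.71, 3.70 and 3.75 in untreated arrays. It was the one gene of the 10 whose groups did not overlap, beside 8.17% of all genes with every treated array above every untreated one and 4.18% with every treated array below. Means were 4.10 ± 0.18 and 3.72 ± 0.03 (SD, n = 3 each), a difference of 0.38 ± 0.11 (SE; adjusted p = 0.597 in limma, exact permutation p = 0.1, the lowest possible). Its mean exceeded only 17.2% of the negative control sets. A difference at this level is one between signals in the range of the background, and the size of the change in Plac8 RNA cannot be read from it.

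Itgam, the CD11b chain of the complement receptor by which monocytes and neutrophils adhere and engulf, measured 6.89, 6.64 and 7.19 in finerenone arrays, against 6.50, 6.55 and 6.71 in untreated arrays. Finerenone replicate 2 lay among the untreated values, and the difference was 0.32 ± 0.15 (SE; adjusted p = 0.667 in limma). Without finerenone replicate 3 it was 0.18. Lgals3, galectin-3, a sugar-binding protein secreted by macrophages of fibrotic tissue, measured 6.26, 5.92 and 6.29 in finerenone arrays, against 5.94, 6.07 and 5.97 in untreated arrays. Finerenone replicate 2 was the lowest of all 6 arrays, and the difference of 0.16 ± 0.12 had a 95% interval of -0.13 to 0.45. It was 0.28 without that array and 0.10 without finerenone replicate 3.

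Trem2, a lipid-sensing receptor of macrophages that clear debris, measured 5.0, 4.70 and 4.79 in finerenone arrays, against 4.94, 4.61 and 4.66 in untreated arrays. Each group had 1 array near 5 and 2 lower ones, and the difference was 0.10 ± 0.13 (SE; adjusted p = 0.894 in limma). With single arrays left out it ran from 0.01 (without finerenone replicate 1) to 0.19 (without untreated replicate 1). Its signalling partner Tyrobp, an adaptor shared by many myeloid receptors, measured 8.69, 7.96 and 8.10 in finerenone arrays, against 7.12, 8.16 and 7.52 in untreated arrays. The Tyrobp difference was 0.65 ± 0.30 with overlapping groups (adjusted p = 0.667 in limma).

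Among the resident genes, Lyve1, a hyaluronan receptor of vessel-associated macrophages and of lymphatic endothelium, measured 11.06, 11.86 and 12.08 in finerenone arrays, against 11.19, 10.99 and 11.32 in untreated arrays. Of the treated arrays 2 lay above every untreated one, and finerenone replicate 1 lay among the untreated values. The difference was 0.50 ± 0.26 (SE), or 1.41-fold with a 95% interval of 0.91 to 2.19 (adjusted p = 0.702 in limma, exact permutation p = 0.3). It was 0.80 without finerenone replicate 1 and 0.29 without finerenone replicate 3. Folr2, a folate receptor of resident macrophages, measured 11.37, 10.34 and 10.75 in finerenone arrays, against 10.12, 10.46 and 10.48 in untreated arrays. Here finerenone replicate 1 was the highest array, whereas for Lyve1 it was the lowest treated one. The difference was 0.47 ± 0.26 (adjusted p = 0.714 in limma), 0.19 without finerenone replicate 1 and 0.70 without finerenone replicate 2. The neighbouring paralogue Folr1, 1140 bases away, had a difference of -0.0038 ± 0.08 and a mean of 3.69 in each group, below the control median.

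Mrc1, the mannose receptor CD206 that takes up glycoproteins and is carried by sinusoidal endothelium too, measured 11.06, 10.56 and 11.14 in finerenone arrays, against 10.69, 10.87 and 10.66 in untreated arrays. Finerenone replicate 2 was the lowest array of all, and the other 2 treated arrays were the highest. The difference of 0.18 ± 0.17 (SE) had a 95% interval of -0.22 to 0.58 and ran from 0.07 without finerenone replicate 3 to 0.36 without finerenone replicate 2. Cd163, the receptor that clears haemoglobin bound to haptoglobin, measured 8.64, 8.80 and 8.98 in finerenone arrays, against 8.76, 8.89 and 8.68 in untreated arrays. The groups lay on top of each other, with a difference of 0.03 ± 0.11 and a 95% interval of -0.24 to 0.31. The sign of that difference turned without finerenone replicate 3 (-0.05) and without untreated replicate 3 (-0.01).

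Timd4, the phosphatidylserine receptor TIM-4 by which resident macrophages hold dying cells, was the exception in direction. It measured 6.58, 7.0 and 6.88 in finerenone arrays, against 7.05, 7.19 and 6.97 in untreated arrays. Finerenone replicates 1 and 3 were below every untreated array, and finerenone replicate 2 lay among them. Means were 6.82 ± 0.22 and 7.07 ± 0.11 (SD, n = 3 each), a difference of -0.25 ± 0.13 (SE), or 0.84-fold with a 95% interval of 0.68 to 1.04 (adjusted p = 0.695 in limma, exact permutation p = 0.2). It kept its sign with every single array left out, from -0.34 without finerenone replicate 2 to -0.13 without finerenone replicate 1.

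**Figure D3:**
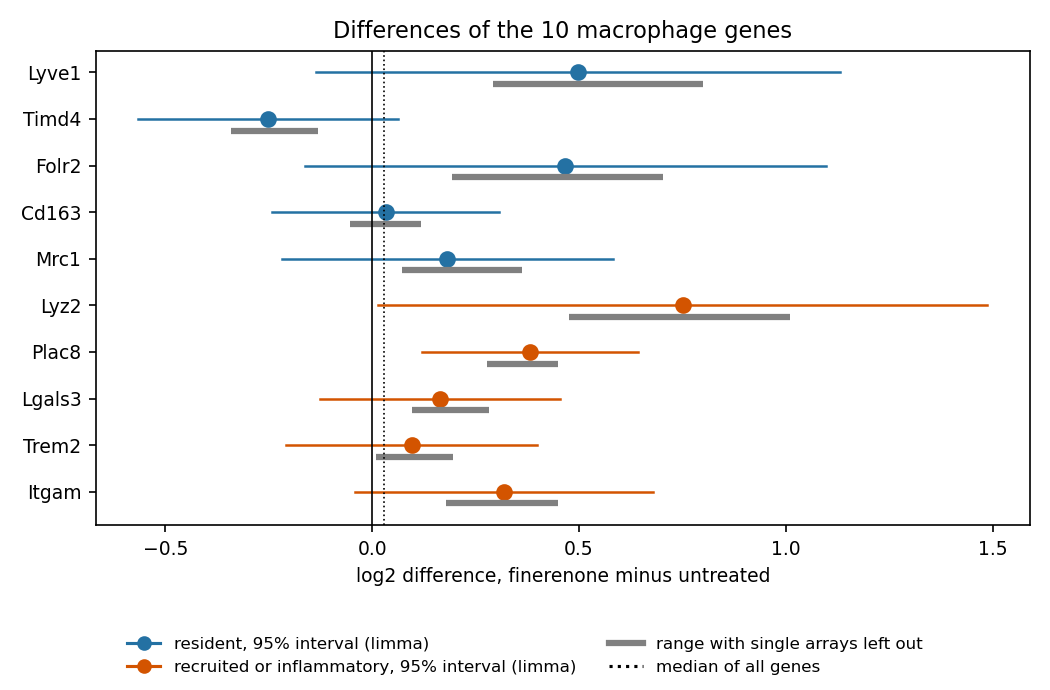
Log2 difference, finerenone minus untreated, of each gene (points) with its 95% interval in limma (thin lines) and the range of the difference with single arrays left out (grey bars). The intervals of Lyz2 and Plac8 do not reach 0, that of Timd4 lies mostly below 0, and the grey bar of Cd163 crosses 0.

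As a description of both groups of genes, the median difference was 0.32 for the 5 recruited genes and 0.18 for the 5 resident genes, against 0.03 for all genes. With single arrays left out the recruited median ran from 0.18 (without finerenone replicate 3) to 0.42 (without finerenone replicate 2), and the resident median from 0.07 to 0.36 (without the same 2 arrays). After each gene was centred on its mean over the 6 arrays, the recruited mean was 0.37, -0.03 and 0.17 in finerenone arrays, against -0.22, -0.09 and -0.21 in untreated arrays. The resident mean was 0.03, 0.00 and 0.25 in finerenone arrays, against -0.15, -0.03 and -0.09 in untreated arrays. Treated arrays were above untreated ones in each case, but only narrowly for finerenone replicate 2. Of single genes, 8.17% of all had every treated array above every untreated one. The recruited mean includes Plac8 and Trem2, both below the control median. In finerenone replicate 2 and untreated replicate 2, Plac8 was at 0.12 and -0.21, and Trem2 at -0.08 and -0.17. In the same arrays Lyz2 was at 0.07 and 0.14, Lgals3 at -0.16 and 0, and Itgam at -0.10 and -0.20. Of these brighter genes, Lyz2 and Lgals3 were lower in the treated array and Itgam was higher. The separation of the recruited mean thus depended on Plac8 and Trem2. The recruited minus the resident mean was 0.35, -0.03 and -0.08 in finerenone arrays, against -0.07, -0.05 and -0.12 in untreated arrays. This contrast overlapped between the groups, and finerenone replicate 1 was the one array above 0. No difference between resident and recruited genes was tested.

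The treated mice differed among themselves more than the untreated mice in 9 of the 10 genes by SD, Trem2 being the other. For Lyz2 the SDs were close (0.48 and 0.45), and the share of all genes with a larger SD in treated mice was not counted. Finerenone replicate 3 was the highest of all 6 arrays for Lyve1, Cd163, Mrc1, Lgals3 and Itgam, and finerenone replicate 1 for Folr2, Lyz2, Plac8 and Trem2. Both classes of genes are found in each of these sets. Finerenone replicate 2 was the lowest treated array for 6 of the 10 genes. Over all transcript clusters untreated replicate 1 had the lowest mean correlation with the other arrays (0.990), and without it the 10 differences kept their signs, with Lyz2 at 0.61 and Folr2 at 0.35.

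**Figure D4:**
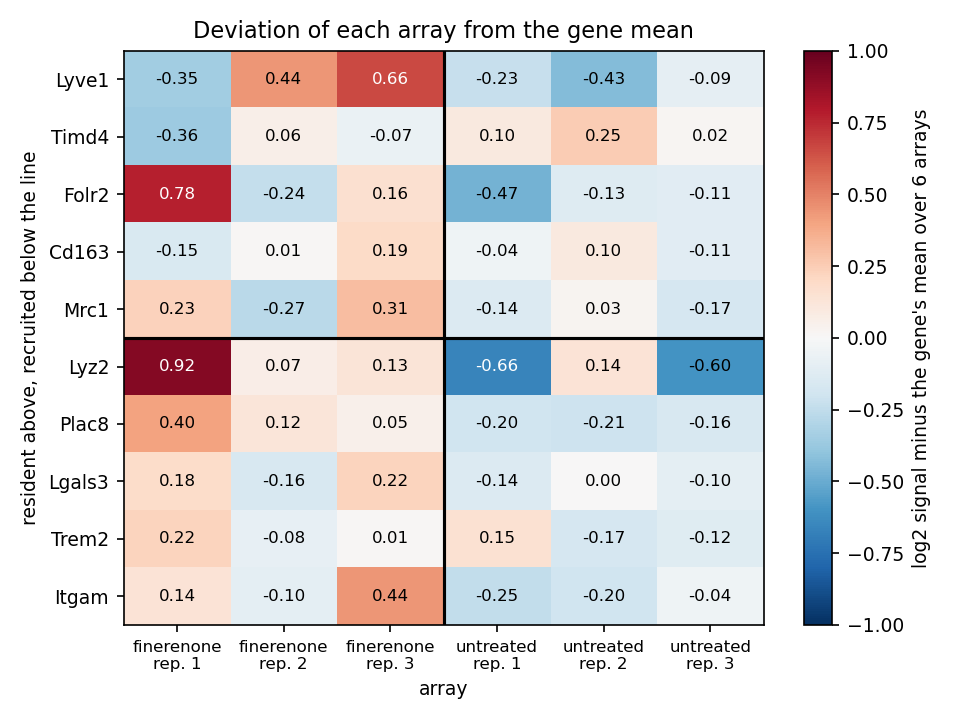
Deviation of each array (columns, finerenone left and untreated right) from the gene's mean over the 6 arrays, in log2 units, with resident genes above the horizontal line and recruited genes below it. Finerenone replicate 1 is high for Lyz2 (0.92) and Folr2 (0.78) but low for Lyve1 (-0.35) and Timd4 (-0.36), and finerenone replicate 3 is high for Lyve1 (0.66) and Itgam (0.44).

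Other genes of the same cells were read from lists of further macrophage genes. Of 14 measured genes that mark macrophages of any origin, 13 had a higher mean in treated hearts and the median difference was 0.28. That median was 0.16 without untreated replicate 3 and 0.41 without untreated replicate 2. None passed the adjusted threshold, and 2 were at an unadjusted p below 0.05 in limma, Mpeg1 and Fcgr1. The shares of all genes were 58.2% with a higher mean and 5.69% higher at that unadjusted p in limma. Mpeg1, a pore-forming protein of phagocytes, measured 7.99, 7.64 and 7.67 in finerenone arrays, against 6.95, 7.20 and 7.35 in untreated arrays (difference 0.60 ± 0.15, SE). Fcgr1, a high-affinity receptor for IgG, differed by 0.60 ± 0.20, and Ctss, a lysosomal protease for antigen processing, by 0.72 ± 0.32. Csf1r, the receptor for the macrophage growth factor, differed by 0.00 ± 0.18. Per array the list averaged 8.21, 7.85 and 7.99 in finerenone arrays, against 7.65, 7.96 and 7.54 in untreated arrays, so untreated replicate 2 lay above finerenone replicate 2 here, as it did for Lyz2.

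Of 19 further genes linked to resident macrophages, 15 had a higher mean in treated hearts, with a median of 0.08. There were 5 at an unadjusted p below 0.05 in limma, all higher, and 0 past the adjusted threshold. Over all genes 58.2% had a higher mean, and 5.69% were higher at an unadjusted p below 0.05 in limma. Vsig4, a complement receptor, measured 7.10, 6.97 and 7.31 in finerenone arrays, against 6.14, 6.19 and 6.81 in untreated arrays, without overlap (difference 0.75 ± 0.20, SE). Maf, a transcription factor of macrophages, differed by 0.54 ± 0.15 and F13a1, the factor XIII subunit made by these cells, by 0.35 ± 0.11, also without overlap. Every treated array was above every untreated one for 5 of the 19, beside 8.17% of all genes. Vsig4, Maf and F13a1 were named for the smallest unadjusted p in limma, so their shared sign follows in part from that choice. The 4 genes with a lower mean, like Timd4, were Klf2 (-0.38 ± 0.43), Siglec1 (-0.07 ± 0.09), Cd207 (-0.07 ± 0.09) and Clec4f (-0.06 ± 0.10).

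The 20 measured genes linked to monocytes and recruited macrophages were divided, with 10 higher, 10 lower and a median of -0.01. Ms4a4c, a membrane protein of monocytes, differed by 0.65 ± 0.16 (SE). Ccr2, the chemokine receptor by which monocytes leave the marrow, measured 5.55, 5.66 and 6.05 in finerenone arrays, against 5.25, 5.23 and 5.25 in untreated arrays, without overlap and close to the control median. Its difference was 0.51 ± 0.14, beside 8.17% of all genes with every treated array above every untreated one. Ms4a4c and Ccr2 were the 2 of the 20 at an unadjusted p below 0.05 in limma, beside 5.69% of all genes higher and 2.12% lower. Ace, the angiotensin-converting enzyme, differed by 0.23 ± 0.13. On the lower side, and named after their values were seen, were Hp, Arg1, Nos2 and Ifitm6. Hp, haptoglobin, differed by -0.49 ± 0.35 and Arg1, arginase, by -0.26 ± 0.26. For both, untreated replicate 1 was the highest array (7.54 and 5.07). Nos2, inducible nitric oxide synthase, differed by -0.23 ± 0.14. Ifitm6 differed by -0.15 ± 0.09 without overlap, beside 4.18% of all genes with every treated array below every untreated one. Arg1 (mean 4.33), Nos2 (5.01) and Ifitm6 (4.91) were below the control median. None of the 20 passed the adjusted threshold, and 8 of them were below the control median. Those with a mean at or above it had a median of 0.19.

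Of 13 lipid and lysosome genes linked to Trem2, 9 had a higher mean in treated hearts, with a median of 0.15. Cd9, a tetraspanin, differed by 0.63 ± 0.17 (SE) and Cd63, a tetraspanin of late endosomes, by 0.35 ± 0.12, and both are made by many cell types. The sterol exporter Abcg1 differed by 0.16 ± 0.08. Apoe and Lpl, the lipoprotein and lipase of lipid-laden macrophages, differed by -0.10 and -0.12. Of 7 galectins other than Lgals3, 6 had a lower mean, among them Lgals4 by -0.47 ± 0.16 and Lgals8 by -0.14 ± 0.11. Lgals1, like Lgals3, had a higher mean, by 0.24 ± 0.18. Of 10 measured growth factors and receptors, 4 had a higher mean, with a median of -0.04, Tgfb1 at -0.29 ± 0.13, Il10 at 0.16 ± 0.13 and Csf2ra at -0.09 ± 0.08. In all 3 of these lists 0 genes passed an adjusted p of 0.05 in limma. Of the other folate receptors and lysozymes, Izumo1r differed by 0.01 ± 0.08, which was the median of 3 genes with Folr1 and Lyz1.

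Several of the 10 genes are made by other cells, and markers of those cells were read beside them. Lymphatic endothelium, which carries Lyve1, had 8 measured markers with 5 higher, 3 lower and a median of 0.07, and its list mean was 6.73 to 6.98 in finerenone arrays, against 6.79 to 6.99 in untreated arrays. Prox1, its defining factor but one of cardiomyocytes as well, measured 10.82, 10.04 and 9.91 in finerenone arrays, against 11.07, 10.95 and 10.91 in untreated arrays, the direction opposite to Lyve1. Pdpn differed by 0.34 ± 0.23 (SE), and Flt4 by -0.15 ± 0.12. Their part in the Lyve1 difference was not tested. Blood endothelium had 10 of 10 markers lower (median -0.39, list mean 11.5 to 11.9 in finerenone arrays, against 11.8 to 12.5 in untreated arrays), among them Fabp4 at -0.09 and Cdh5 at -0.73. At an unadjusted p below 0.05 in limma there were 2, beside 2.12% of all genes lower, and 0 passed the adjusted threshold. Of all genes, 58.2% had a higher mean in treated hearts.

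Neutrophils share Lyz2, Itgam and Plac8. Of 13 measured neutrophil markers 9 lay below the control median, among them Mpo, Elane and Mmp8, and the list had 6 higher, 7 lower and a median of 0.00. Its mean was 4.66 to 4.90 in finerenone arrays, against 4.52 to 5.10 in untreated arrays. The calgranulin S100a8 measured 7.0, 5.89 and 5.31 in finerenone arrays, against 3.90, 5.88 and 7.44 in untreated arrays. S100a9 differed by 0.21 ± 0.59 (SE), and Retnlg by -0.08 ± 0.28. Finerenone replicate 1 was thus high for S100a8 as it was for Lyz2, while untreated replicate 3 was higher still with a low Lyz2. The part of neutrophils in the Lyz2, Itgam and Plac8 differences was not tested.

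The remaining marker lists gave medians of -0.02 for dendritic cells (8 measured, 4 higher), -0.10 for T and NK cells (13, 4 higher, all below the control median), -0.11 for B cells (7, 0 higher, all below it) and -0.10 for mast cells (6, 2 higher). In the dendritic list Cd209a, a lectin also found on macrophages, differed by 0.57 ± 0.20 (SE), and Ccr7, a homing receptor, by -0.45 ± 0.11, both without overlap. Over all genes, every treated array was above every untreated one in 8.17%, and below in 4.18%. Il7r, Gzma, Cd79b and Cd79a lay below the control median like the rest of their lymphocyte lists, and the mast cell proteases Cpa3 and Mcpt4 differed by -0.53 ± 0.54 and -0.44 ± 0.33. Fibroblast markers had a median of 0.10 (10, 7 higher), with Dcn at 0.17 ± 0.15 (SE) and Dpt at 0.52 ± 0.27. Of 9 markers of cardiomyocytes, the tissue's main cell, 5 had a higher mean, and the median of 0.00 was the value of Tnnt2, a troponin. Tnnt2 was at 19.92 to 19.93 on every array, where 19.93 was the highest value deposited, so this median is no measure of stable cardiomyocyte RNA. Myh6, a myosin, was almost as flat (-0.02 ± 0.07), while Ryr2, a calcium channel, and Ttn, titin, which varied between arrays, differed by -0.20 ± 0.28 and -0.25 ± 0.29. Serosal macrophage markers had a median of 0.06 (6, 4 higher), with Gata6 at -0.24 ± 0.11 and Prg4 at 0.78 ± 0.50, and 2 measured erythroid genes, Alas2 and Slc4a1, had differences of -0.54 ± 0.67 and -0.10 ± 0.12.

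**Figure D5:**
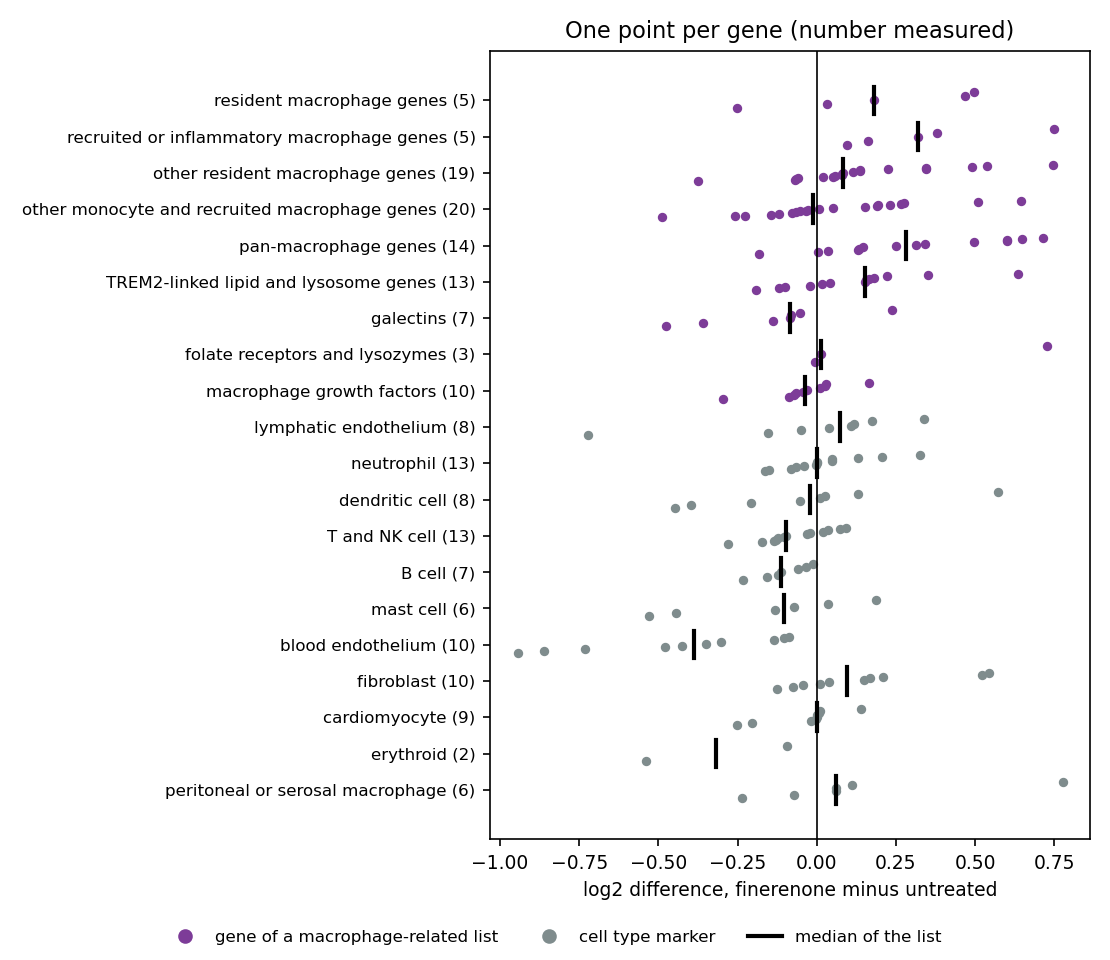
Log2 difference, finerenone minus untreated, of every measured gene of 20 lists (points), with the median of each list as a black bar and the number of measured genes in brackets. The recruited and the pan-macrophage lists have medians of 0.32 and 0.28, the blood endothelium list has one of -0.39, and the monocyte and neutrophil lists have medians of -0.01 and 0.00.

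The genes with the profile most like that of 2 members over the 6 arrays were listed as a description, among 3862 genes of at least median signal and an SD of at least 0.2. Predicted genes, with symbols of Gm and digits or digits and Rik, were left out. For Lyz2 the listed genes were C3ar1, the receptor for complement fragment C3a (r = 0.981), Lage3 (0.980), Lyz1 (0.978), Dimt1 (0.976) and Otulinl (0.974). For Mrc1 they were Mir1941 (0.969), Tnc, the matrix protein tenascin C (0.963), Gsg1l (0.952), Fn3krp (0.951) and Klhl38 (0.929). The 6 arrays share their normalization, and no test was made of these values.

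The upstream windows of the members were searched for GAGGAA, a core read by the myeloid factor PU.1, and AGAACA, a half-site of the corticosteroid receptors, on both strands in the 250 bases before each start in RefSeq (GRCm38.p6). No window was available for Lyve1. Of 11 windows of 9 member genes, 4 held GAGGAA (Mrc1, Trem2, Itgam and 1 of 2 for Plac8), beside 23.3% of all 32851 windows, and 2 held AGAACA (Cd163 and 1 of 2 for Folr2), beside 16.1%. Mrc1 of the resident and Itgam of the recruited genes are shown with GAGGAA or its reverse complement in capitals.
Mrc1: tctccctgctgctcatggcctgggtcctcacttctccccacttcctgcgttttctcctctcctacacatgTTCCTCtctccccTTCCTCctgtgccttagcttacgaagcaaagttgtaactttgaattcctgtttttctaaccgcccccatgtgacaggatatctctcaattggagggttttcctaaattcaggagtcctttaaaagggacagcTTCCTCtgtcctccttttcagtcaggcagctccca
Itgam: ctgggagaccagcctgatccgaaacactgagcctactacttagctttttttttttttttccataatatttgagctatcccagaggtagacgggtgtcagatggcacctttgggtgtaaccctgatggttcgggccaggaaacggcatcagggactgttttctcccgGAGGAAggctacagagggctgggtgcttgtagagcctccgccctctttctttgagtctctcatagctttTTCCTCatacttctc
The windows are chr2:14229164-14229413 and chr7:128062390-128062639, both on the plus strand, with 3 matches for Mrc1 and 2 for Itgam. A match is a stretch of letters and no evidence of binding, and the motif was found in genes of both classes.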

How the data were processed

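The authors deposited 1 table of log2 signals; the submitters' processing notes name RMA, Affymetrix Expression Console and Transcriptome Analysis Console, without versions or a build. It held 72688 rows, 65956 transcript clusters and 6732 controls, with values from 1.94 to 19.93. RNA integrity numbers exceeded 7.3, per the labels. Sample titles gave the groups and call the mice biological replicates, and mice were assigned at random per the labels. The platform annotation listed 1 distinct symbol for 30604 clusters, several for 2146 and none for 33206. Symbols were updated through Entrez identifiers (RefSeq, GRCm38.p6). For 355 genes with several clusters the brightest was kept, giving 30142 genes, unfiltered.

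limma 3.58.1 (R 4.3.3) compared the groups, two-sided and without covariates, with Benjamini-Hochberg adjustment over all genes, after a check on simulated data. Single genes also had a two-sided exact permutation test. The number of arrays limits precision. Members and lists were chosen with earlier results of these data known. Of 205 list genes, 187 were measured, 9 shared a cluster with another symbol and 9 had none. All 10 members were named, with 3 genes of smallest unadjusted p per gene list, and per marker list the 2 of highest mean and defining markers at background. Tyrobp, Csf1r, Apoe, Lpl, Hp, Arg1, Nos2, Ifitm6, Ryr2, Ttn, Flt4, S100a8, Klf2, Siglec1, Cd207 and Clec4f were added after their values were seen. Alternatives covered normalization, dim genes, cluster choice, limma's prior, weights, replicate block, all clusters, threshold and each array left out.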

Additional observations from a re-analysis of the deposited data

How the results depend on the processing

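No gene passed an adjusted p of 0.05 in limma (0 of 30142, 0 of the 10) under any alternative that kept this threshold. At an unadjusted p of 0.05 there were 2353 genes, 2 of them among the 10. Over the alternatives the unadjusted p in limma ran from 0.00929 to 0.033 for Plac8, from 0.0127 to 0.134 for Lyz2 and from 0.0169 to 0.203 for Itgam. After quantile normalization it was 0.114 for Lyz2 and 0.0466 for Itgam. With the replicate block 0 genes passed, the Lyz2 difference stayed at 0.75 with an unadjusted p of 0.0806 in limma, and the Itgam p was 0.0436. Deviations of same-numbered arrays correlated at -0.154, 0.0588 and 0.0579, and those of differently numbered arrays at -0.174 to 0.122. With 3 arrays per group these values cannot show whether the numbers pair the samples. The Cd163 difference was between -0.0537 and 0.118 when an array was dropped. List medians over genes at or above the negative control median, then over genes with a mean of at least 6, were 0.193 and 0.191 (monocyte), 0.0987 and 0.0173 (TREM2-linked), 0.729 and 0.729 (folate receptors and lysozymes, with fewer genes left), and -0.0763 and -0.0881 (growth factors). The first filter gave -0.398 for dendritic cells and the second -0.443 for mast cells. When an array was dropped, medians ran from 0.0729 to 0.362 (the 5 resident genes), 0.0446 to 0.164 (further resident), -0.0389 to 0.0833 (monocyte), 0.0809 to 0.148 (TREM2-linked), -0.190 to 0.0006 (galectins), -0.057 to 0.0015 (growth factors), -0.052 to 0.112 (lymphatic), 0.163 to 0.407 (pan-macrophage), -0.0046 to 0.0652 (folate receptors and lysozymes), -0.0377 to 0.0536 (neutrophil), -0.0644 to 0.0029 (dendritic), -0.387 to 0.0247 (mast cell), -0.003 to 0.262 (fibroblast), -0.0187 to 0.0023 (cardiomyocyte), -0.605 to 0.0137 (erythroid), -0.0065 to 0.108 (serosal), -0.0876 to -0.0504 (T and NK) and -0.120 to -0.0462 (B cell). Every range here that spans 0 is a median whose sign depended on single arrays. Genes with a higher mean were 53.7% of all after quantile normalization. Signal limits Plac8 and Trem2, both below the negative control median. Lgals3, Itgam and Timd4 were above that median but below the 95th percentile of the control sets.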
